A study of Rattus norvegicus with 4 samples.

Results

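The pancreas makes its serine proteases as inactive zymogens, and 9 of their genes are described here: the trypsinogens Prss1, Prss2 and Prss3, the chymotrypsinogens Ctrb1, Ctrc and Ctrl, and the elastases Cela1, Cela2a and Cela3b. Members were the gene probes of the array that carry one of these symbols in the authors' tables or through their accession. This rule found 8 probes of 30367, 1 for each gene except Prss2, for which it found none. The probe carrying the symbol Prss3 stands for a gene that RefSeq now calls Prss3b, and RefSeq now gives the name Prss3 to a neighboring trypsinogen that the authors' tables list as LOC362347. The latter is not a member by the rule and is described separately below.

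Weanling male Sprague-Dawley rats were fed an iron-deficient (FeD, 5 ppm iron), iron-adequate (FeA, 35 ppm by the labels) or iron-overloaded (FeO, 20275 ppm) diet for 3 weeks. Total RNA of the pancreas was pooled from the 6 rats of each diet, so each diet is 1 sample. Against the FeA pool, the RNA of each of the other diets was hybridized on 2 two-color arrays. On array 1 the FeD or FeO pool carried the red dye (Cy5) and the FeA pool the green dye (Cy3), and on array 2 the dyes were exchanged. The same RNA was thus read on 2 arrays per comparison, which differ only technically, and no test of a diet effect was possible. Both comparisons share the FeA pool, so their values are given side by side and no likeness between them is read as a result. In pooled tissue RNA, fewer acinar cells and less zymogen mRNA per acinar cell cannot be told apart.

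Acinar cells store zymogens in granules and release them into the duct after a meal. In the intestine, enteropeptidase cleaves trypsinogen to trypsin, and trypsin then activates the other trypsinogens, the chymotrypsinogens and the proelastases. Trypsin cuts after basic residues, chymotrypsin after large hydrophobic or aromatic ones, and elastase after small ones. Premature activation inside the gland damages it, and the acinar trypsin inhibitor Spink1 and the trypsinogen-degrading chymotrypsin C guard against it. Transcription of these genes in acinar cells depends on PTF1, a complex of Ptf1a, an E-protein and Rbpj or its relative Rbpjl. This complex binds a bipartite site made of an E-box and a TTTCCC box.

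The stretches of 250 bases before the annotated start are shown for 4 members because of their FeD values in the green channel, which was not saturated: Ctrb1, Ctrl and Cela1 had the 3 highest there, and Prss1, a trypsinogen, a lower one. They are RefSeq sequences of build GRCr8, written 5′ to 3′ on the strand of the gene. Capitals mark the E-box CACCTG, which reads CAGGTG on the opposite strand, the box TTTCCC, which reads GGGAAA there, and TATAAA on the gene's strand.
Ctrb1, chr19:56566979-56567228, minus strand: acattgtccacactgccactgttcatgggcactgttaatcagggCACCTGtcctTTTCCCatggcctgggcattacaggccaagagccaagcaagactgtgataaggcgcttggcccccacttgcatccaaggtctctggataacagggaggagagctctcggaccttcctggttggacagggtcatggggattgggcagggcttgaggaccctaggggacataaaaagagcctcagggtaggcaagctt
Cela1, chr7:133665062-133665311, minus strand: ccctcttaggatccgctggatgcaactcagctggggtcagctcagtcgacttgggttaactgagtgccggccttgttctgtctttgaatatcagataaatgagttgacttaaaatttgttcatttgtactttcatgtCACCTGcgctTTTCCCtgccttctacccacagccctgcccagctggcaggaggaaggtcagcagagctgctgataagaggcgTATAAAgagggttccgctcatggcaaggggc
Ctrl, chr19:50738980-50739229, minus strand: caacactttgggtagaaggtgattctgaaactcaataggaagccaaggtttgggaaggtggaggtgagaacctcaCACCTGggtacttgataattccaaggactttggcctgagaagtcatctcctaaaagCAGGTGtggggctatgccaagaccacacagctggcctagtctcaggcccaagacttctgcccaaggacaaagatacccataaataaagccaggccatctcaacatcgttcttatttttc
Prss1, chr4:71330999-71331248, plus strand: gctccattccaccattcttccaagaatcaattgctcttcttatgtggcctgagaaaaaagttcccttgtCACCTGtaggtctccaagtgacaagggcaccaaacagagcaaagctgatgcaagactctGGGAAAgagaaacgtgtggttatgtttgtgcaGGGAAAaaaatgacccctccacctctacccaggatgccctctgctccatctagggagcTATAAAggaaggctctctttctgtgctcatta

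Of the zymogen genes, 8 had a promoter entry (Prss1, Prss2, Prss3b, Ctrb1, Ctrc, Ctrl, Cela1 and Cela3b). CACCTG, searched on both strands of the 250 bases, was found in 7 of these 8 and in 15.9% of all 33469 promoters. TTTCCC, searched the same way, was found in 5 of the 8 and in 22% of all. In Ctrb1 and Cela1 the pair lay in the same order with 4 bases between, from base 206 before the start in Ctrb1 and from base 113 in Cela1. The spacing was read from these sequences, and CACCTG followed by any 4 bases and TTTCCC was then searched on both strands. It was found in 8 of all 33469 promoters (0.0239%). Of these, 3 belong to zymogen genes: Ctrb1 and Cela1, whose matches were given by the choice of spacing, and Prss2. The share is therefore no test of an enrichment among zymogen genes. Ctrl held a pair of E-boxes and no TTTCCC, and Prss1 an E-box and TTTCCC in opposite orientation. TATAAA lay on the gene's strand in 5 of the 8 and in 8.06% of all promoters. A match is a description of the letters, not of binding.

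The zymogen spots were among the brightest of the array, and their red readings reached the limit of the scanner. Every one of the 64 readings of member probes (8 probes, 4 arrays, 2 dyes) came from the low-gain scan, from which the scanner software scales up bright spots. In red, 21 of 32 member readings were saturated, and in green 0 of 32. Only 73 red spots of gene probes were saturated over the 4 arrays. The members held 21 of them and other secreted acinar products, such as lipase and carboxypeptidases, 27. Outlier flags, which the software gives to spots of uneven pixels, fell on 5 member spots, all in red and all in the FeO comparison: Cela3b on array 1, and Prss1, Prss3, Ctrl and Cela2a on array 2.

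Ctrb1, chymotrypsinogen B, shows what this means for a ratio. In green its median spot signal was 175982 in the FeA pool and 418300 in the FeD pool, and 183363 in the FeA pool and 471551 in the FeO pool. In red all 4 readings were saturated, at 750156 in the FeD pool and 754178 in the FeA pool, and at 765638 in the FeO pool and 760129 in the FeA pool. The green readings of both diets lay above both green FeA readings, while the red readings were pinned at the ceiling and carry no ratio. Ctrl read 167476 and 357885 in green in the FeA and FeD pools, and 211925 and 274076 in the FeA and FeO pools. Cela1, the elastase with the fewest saturated readings (1 of 4), read 179084 and 300504 in green in the FeA and FeD pools and 172312 and 220245 in the FeA and FeO pools. At the other end, the trypsinogen carried as Prss3 had no saturated reading. Its green signals of 146389 and 166055 (FeA and FeD) and 161832 and 158499 (FeA and FeO) differed little between pools.

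**Figure D1:**
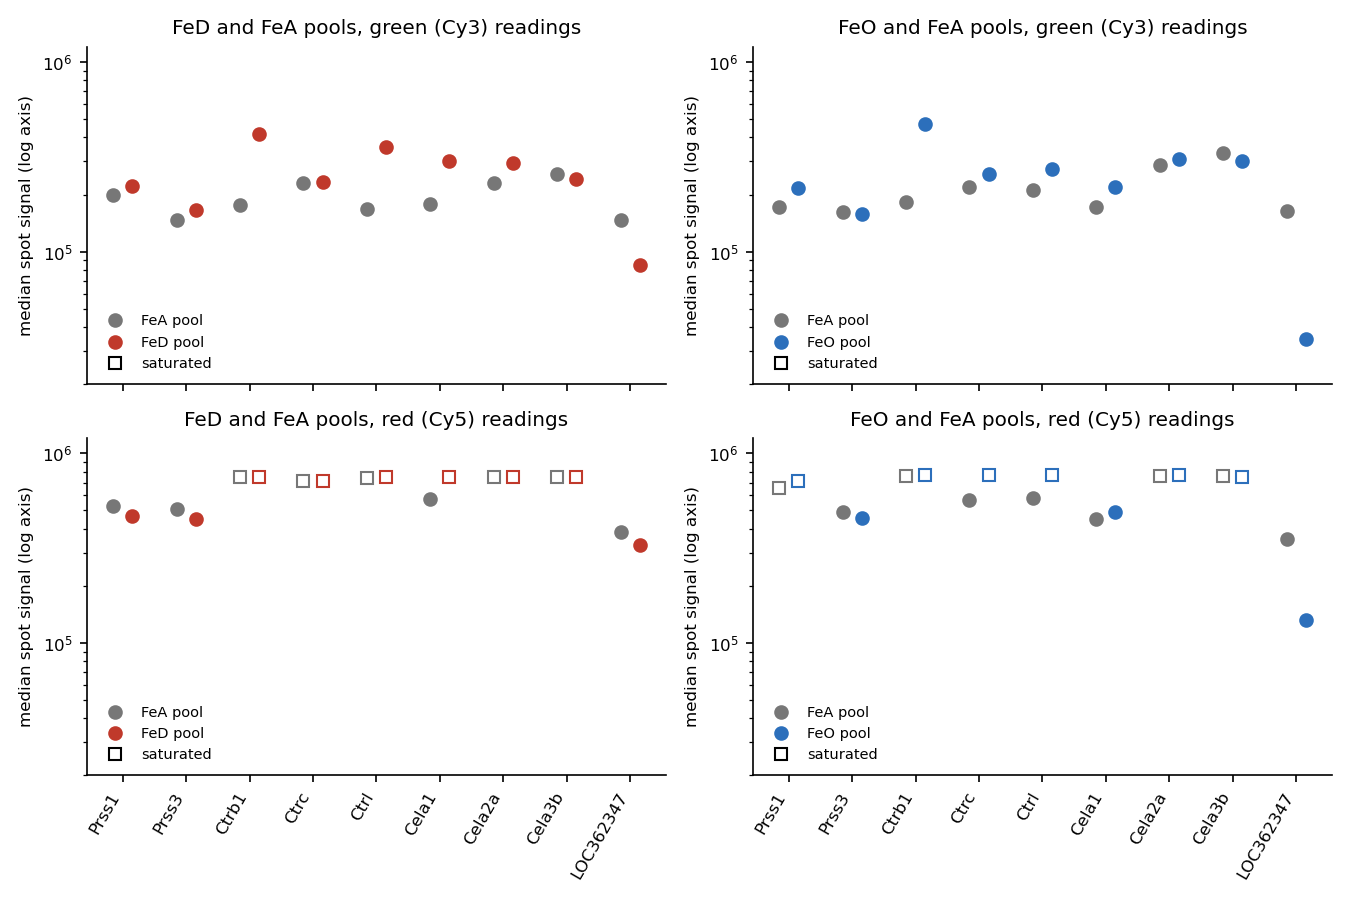
Median spot signal (log axis) of each zymogen probe and of LOC362347 in the FeA pool (gray) and in the FeD (red points) or FeO (blue points) pool, with the green dye in the upper and the red dye in the lower panels and open squares for saturated readings. No green reading is saturated and 21 of 32 red readings of the zymogens are, and the green Ctrb1 points stand apart (418300 and 471551 against 175982 and 183363 in FeA).

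Saturation makes many of the ratios bounds. Ratios are the log2 of diet over FeA, after background correction and an intensity-dependent (loess) normalization of each array, with the SD over the 2 arrays of a comparison. A saturated red reading holds the diet pool on array 1, where the ratio is then a lower bound, and the FeA pool on array 2, where it is an upper bound. The FeD ratios were measured without saturation on both arrays only for Prss1 and Prss3, and the FeO ratios only for Prss3 and Cela1. Ratios of saturated spots are given as they were read, and with them the means, SDs and signs of the genes concerned are those of the readings, not of the mRNA.

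In the FeD comparison Cela1 lay above FeA on both arrays. It read at least 0.68 on array 1, where its FeD reading was saturated, and 0.39 on array 2, where it was not (mean as read 0.53 ± 0.20). With saturated spots left out its value was 0.38, from array 2 alone. Ctrb1 read at least 0.70 on array 1 and at most 0.50 on array 2 (mean as read 0.60 ± 0.14), bounds that leave no common value. Ctrl, chymotrypsin-like, read at least 0.78 and at most 0.29 (mean as read 0.53 ± 0.35). For Ctrb1 and Ctrl array 1 thus placed FeD above FeA, and array 2 left the side unsettled.

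The remaining elastases and chymotrypsin C, all saturated in red on both arrays, did not keep a side in FeD. As read, Cela2a was at 0.31 and -0.02 (mean 0.14 ± 0.23) and Cela3b 0.14 and -0.31 (mean -0.09 ± 0.32). Ctrc, the chymotrypsin that degrades trypsinogen, read 0.24 and -0.28 (mean -0.02 ± 0.37). Both trypsinogens, measured without saturation, were close to 0 with opposite signs on the 2 arrays. Prss1, an anionic trypsinogen in the rat, read -0.14 and 0.07 (mean -0.04 ± 0.14). Prss3, the rat cationic trypsinogen, read 0.27 and -0.30 (mean -0.02 ± 0.40). For each of these 5 the difference from 0 was smaller than the spread between its arrays.

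All 8 member probes passed the filter on low values (well above background on both arrays in at least 1 pool). As read, no member with both arrays reached a mean log2 ratio of 1 in size with the same sign on both, in either direction. All 8 members had both arrays in FeD and only 3 in FeO, and saturation makes many of these ratios bounds. Among all probes with both arrays, 0.12% reached it upward and 0.246% downward in FeD, and 0.617% and 0.497% in FeO. As read, 3 of 8 members (Ctrb1, Ctrl and Cela1) were above 0 on both FeD arrays, where 24.9% of all probes were, and 0 of 8 were below 0 on both, where 21.5% were. Saturation leaves that position settled for 1 of the 3, Cela1. The median over members as read was 0.06, beside 0.01 over all probes. Over the 8 members the SD on a single array was 0.32 on array 1 and 0.33 on array 2.

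In the FeO comparison only Ctrb1, Ctrc and Cela1 had an unflagged spot on both arrays, and for the other 5 the value is that of 1 array and is not balanced for dye. Cela1, without a saturated reading, was below 0 on both arrays, at -0.20 and -0.31 (mean -0.25 ± 0.08). Ctrb1 read at least 0.32 on array 1 and at most 0.05 on array 2 (mean as read 0.19 ± 0.19), which leaves its side on array 2 unsettled. Ctrc read at least 0.05 and, unsaturated, -0.40 (mean as read -0.17 ± 0.32). Cela3b read at most -0.61 on array 2. The other 4 were read on array 1, with Prss3 at -0.21 without saturation, Prss1 at least 0.32, Ctrl at least 0.10 and Cela2a at least -0.35. Of the 3 members with both arrays, 1 was above 0 on both as read (Ctrb1, not settled, 27.8% of all probes) and 1 below 0 on both (Cela1, 24.1%). The median over the 8 members as read was -0.19, beside 0.01 over all probes.

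Keeping the flagged spots changed the FeO values of the trypsinogens. Prss3, unsaturated, then read -0.20 and -0.89 (mean -0.55 ± 0.48). Prss1, saturated in both red readings, read at least 0.33 and at most -0.86 (mean as read -0.27 ± 0.84), so the sign of its mean turned. Ctrl read 0.11 and -0.35 (mean -0.12 ± 0.32), and its mean turned as well. Cela2a read at least -0.34 and at most -0.56 (mean as read -0.45 ± 0.16), bounds with no common value, and Cela3b at least -0.59 and at most -0.60 (mean as read -0.59 ± 0.01). With these spots, 4 of 8 members (Prss3 and the 3 elastases) lay below 0 on both arrays as read, and 1 above. Over all probes the shares are known only with flagged spots left out, at 24.1% below and 27.8% above. After loess, saturation leaves the position below 0 settled for 2 of the 4, Prss3 and Cela1, and the position above 0 for none. For Cela1 that position depended on the centering, as described below.

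**Figure D2:**
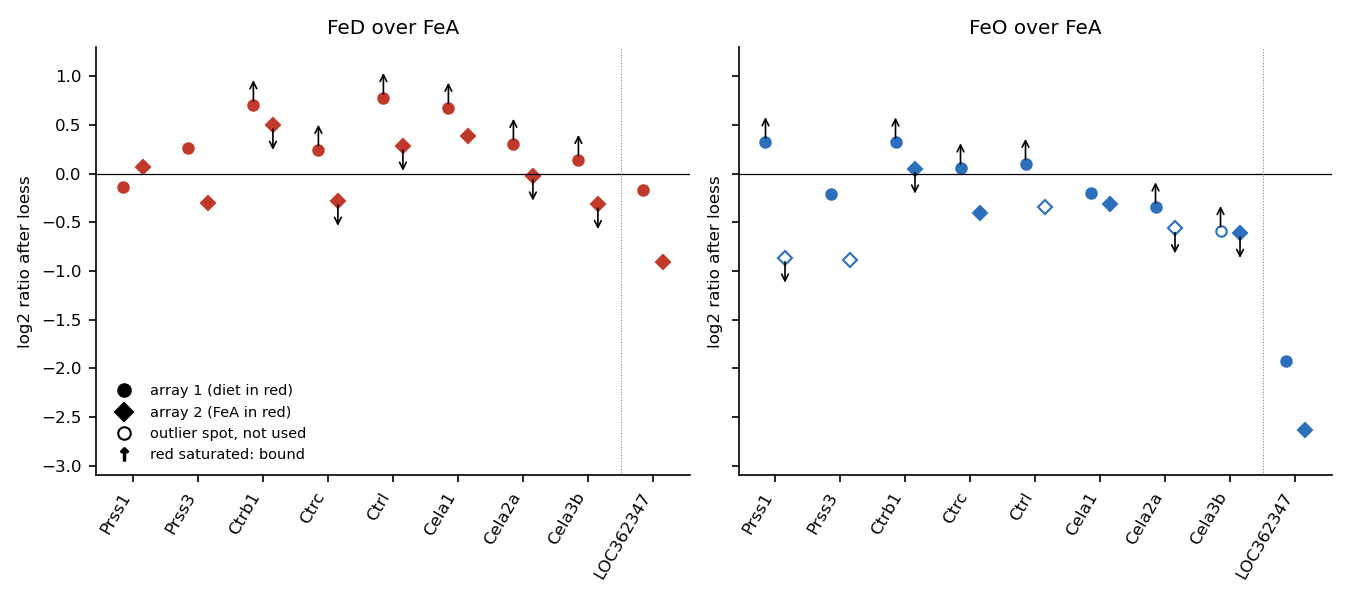
The log2 ratio over FeA (loess) of each zymogen and of LOC362347 on array 1 (circles) and array 2 (diamonds), with open symbols for outlier spots that were not used and arrows where the red reading was saturated, upward for a lower bound and downward for an upper bound. In FeD, Cela1 is above 0 on both arrays (at least 0.68, and 0.39), and in FeO, LOC362347 lies at -1.93 and -2.63, below every zymogen.

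How the arrays were centered decided the sign of the ratio on single arrays and, in FeO, the sign of several means. Bright spots read higher in red than in green on all 4 arrays, whichever pool carried the red dye. When each array was centered on its median instead, with flagged spots kept, all 8 members lay above 0 on array 1 (0.61 to 1.54 in FeD, 0.60 to 1.48 in FeO). On array 2 all 8 lay below 0 (-1.19 to -0.39 in FeD, -1.29 to -0.35 in FeO). Loess moved the members by -0.78 to -0.74 on array 1 and by 0.85 to 0.89 on array 2 in FeD. In FeO it moved them by -1.19 to -1.11 and by 0.40 to 0.42, so there the 2 shifts did not cancel. The means in FeD were accordingly alike with either centering, with Ctrb1 at 0.54, Cela1 at 0.48 and Ctrl at 0.47 after median centering. In FeO the means were higher with median centering, with Ctrb1 at 0.56, Ctrl at 0.26 and Ctrc at 0.21. The FeO mean of Cela1 turned from -0.25 after loess to 0.11. With median centering 5 of 8 members had a mean above 0, against 1 of 8 after loess with the same spots.

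**Figure D3:**
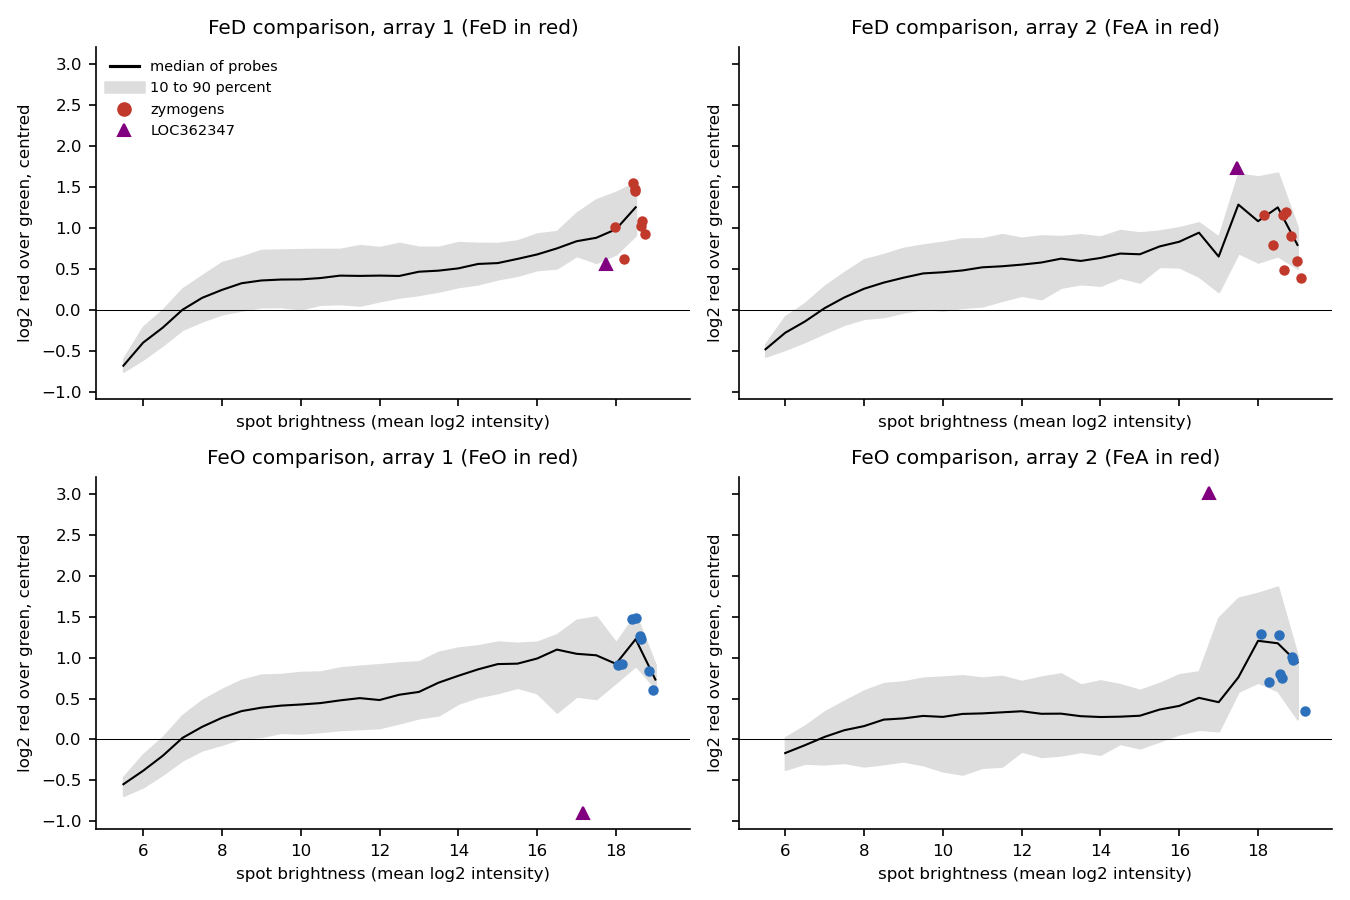
Median-centered log2 ratio of red over green against spot brightness on each array, with the median (line) and the range from 10 to 90 percent (gray) of all probes in brightness bins, the zymogens (points) and LOC362347 (triangle). The zymogens sit at the bright end and above 0 on every array, at 0.35 to 1.54.

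The green channel, which was never saturated, allows a comparison without the red readings, a choice made after the saturation was seen. The diet pool in green on array 2 was set against the FeA pool in green on array 1 of the same comparison, with a loess fit between the 2 green channels. The dye is then the same and the arrays differ. In FeD, Ctrb1 read 1.50 (2.83-fold), Ctrl 1.35 (2.55-fold) and Cela1 1.00 (2.01-fold). Cela2a (0.61), Prss3 (0.45), Prss1 (0.43), Ctrc (0.28) and Cela3b (0.16) followed, so that all 8 were above 0. Over all probes 9117 of 17524 were above 0 in the same setting. In FeO, Ctrb1 read 1.05 (2.08-fold), and the other 7 lay between -0.46 (Cela3b) and 0.07 (Ctrl). Among these, Cela1, below 0 on both FeO arrays after loess, read 0.07.

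How far the green channel can be trusted is seen in the FeA pool, which was read in green on both first arrays. The FeA reading of the FeO comparison over that of the FeD comparison was between -0.04 (Prss1) and 0.54 (Cela3b) over the 8 members, with 0.24 for Ctrb1, 0.12 for Cela1 and 0.52 for Ctrl. The FeD value of Ctrb1, Ctrl and Cela1 and the FeO value of Ctrb1 were larger than every one of these differences, while Cela2a, Prss3, Prss1, Ctrc and Cela3b in FeD were within or close to their range. Bright probes in general read higher with green alone. The 25 other probes as bright as the members (13 of them other acinar products) were higher by a median of 0.37 in FeD, and the 22 in FeO by 0.20. The shift of Ctrb1 was 0.90 in FeD and 0.86 in FeO and that of Ctrl in FeD 0.82, above the highest of the other bright probes (0.65 in both comparisons). Prss1 and Prss3, without a saturated reading in FeD, also shifted, by 0.46 and 0.47. The part of saturation, array and brightness in these shifts was not tested.

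**Figure D4:**
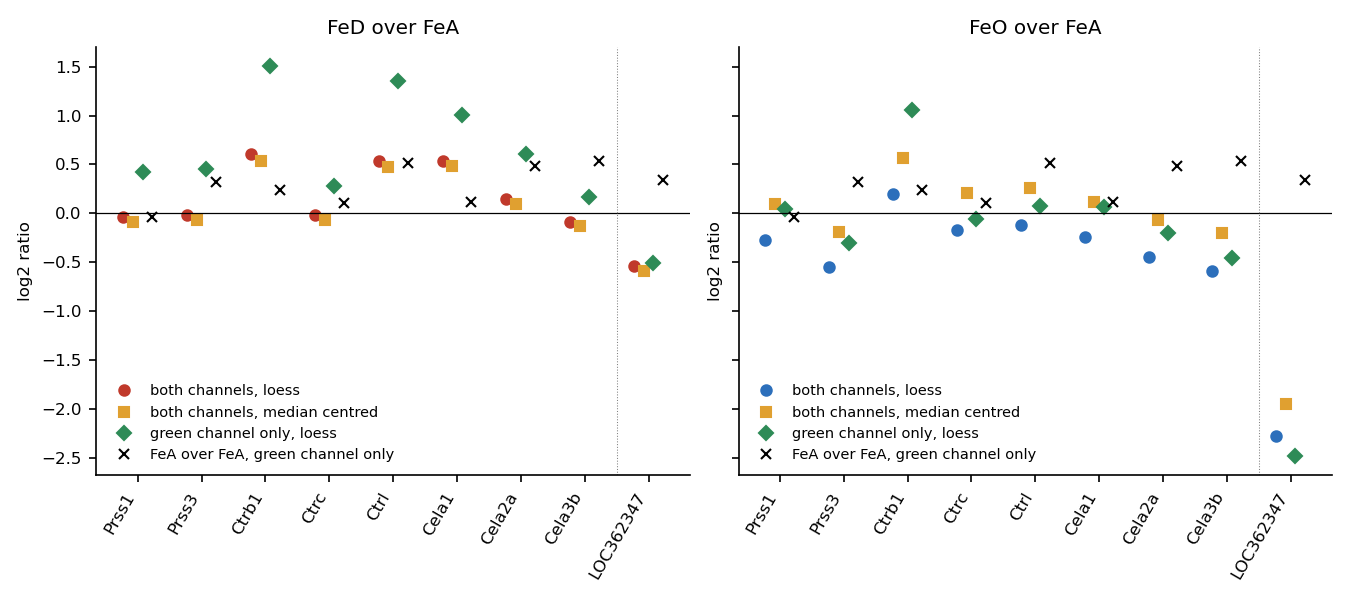
Log2 ratio over FeA of each zymogen and of LOC362347 with both channels after loess or median centering (flagged spots kept), with the green channel only, and, as a technical reference, FeA over FeA in green between the 2 comparisons. Green-only values of Ctrb1 (1.50 and 1.05), and in FeD those of Ctrl (1.35) and Cela1 (1.00), lie above all FeA over FeA values (at most 0.54).

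LOC362347, the trypsinogen that RefSeq now calls Prss3, had the lowest mean ratio of the trypsin family as read, and all 8 of its readings were below saturation. In green it read 146254 in the FeA pool and 84662.8 in the FeD pool, and 164113 in the FeA pool and 34523.5 in the FeO pool. In red it read 330529 in the FeD pool and 386556 in the FeA pool, and 132078 in the FeO pool and 351450 in the FeA pool. In both dyes the FeO reading was the lowest, and within each dye and comparison the FeA reading was above that of the other diet.

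The log2 ratio of LOC362347 was -1.93 on array 1 and -2.63 on array 2 in FeO (mean -2.28 ± 0.50, or 0.206 times the FeA level). A mean of -2 or less with both arrays below 0 was found for 0.137% of all probes in this comparison. In FeD it was -0.17 and -0.91 (mean -0.54 ± 0.52). With median centering the FeO ratios were -0.90 and -3.01, and with green alone the value was -2.48. The FeO direction was the same in each of these, while its size on array 1 depended on the centering. This gene was singled out after its values were seen.

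As read, other trypsinogen probes did not move as far. RefSeq places the rat trypsinogens in one row on chromosome 4, in the order Prss3bl1, 1810009J06Rikl, Prss3b, Prss3, Try5, Try10, Prss2, Prss2l1 and Prss1. These paralogs are alike in sequence, the probe sequences were not used here, and signal of one gene's mRNA on another's probe cannot be told apart. Try10 has 2 probes, each saturated in red on 1 or both arrays of each comparison. The probe with an unflagged spot on all 4 arrays read 0.14 and at most -0.76 in FeD, and at least 0.26 and at most -1.38 in FeO. The other read at least 0.16 and at most -0.39 in FeD, and at least -0.45 on array 1 in FeO. LOC312273, now Prss3bl1, read -0.18 and -0.14 in FeD and -0.44 and -0.27 in FeO. LOC286960, now 1810009J06Rikl, read -0.35 and -0.12 in FeD and -0.26 and 0.31 in FeO. LOC679835, described in the tables as similar to anionic trypsin, read 0.51 and -0.01 in FeD and 0.10 and -0.49 in FeO. As read, none of these 4 genes came near the mean FeO ratio of LOC362347, but the FeO values of Try10 are bounds. With green alone, the Try10 probe with 4 unflagged spots read -0.39 in FeO.

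The list of other pancreatic serine proteases, which holds LOC362347, Try10, LOC286960 and the tissue kallikrein group, had 7 probes, of which 6 were well above background. Their median was -0.18 in FeD and -0.31 in FeO, beside 0.01 over all probes in each. The highest values in FeD belonged to the kallikreins Klk1b3 (0.10) and Klk1l (0.10), and the lowest, after LOC362347, to Try10 (-0.31). In FeO the highest were LOC286960 (0.03) and Klk1l (-0.15). One of the 5 with an unflagged spot on both arrays reached a mean log2 ratio of -1 as read, namely LOC362347.

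Among 15 probes for zymogen activation and inhibition, 11 were detected in FeD and 12 in FeO, and none reached a log2 ratio of 1 in size. The medians were 0.03 in FeD and -0.05 in FeO. Highest in FeD were the lysosomal protease Ctss, at 0.45 and 0.71 (mean 0.58), and a probe for the trypsin inhibitor Spink3, at 0.52 and 0.37 (mean 0.44). The same Spink3 probe was highest in FeO, at 0.74 and 0.49 (mean 0.62), followed by Ctss at 0.27 and 0.66 (mean 0.46). A second probe carrying the symbol Spink3, whose accession RefSeq names Spink1, did not share this and read 0.08 and -0.22 in FeD and -0.12 on array 1 in FeO. Probes of the same inhibitor symbol thus disagreed. Lowest was a probe of Prss7, the intestinal enteropeptidase that activates trypsinogen, at -0.65 and -0.79 in FeD (mean -0.72) and at -0.69 and -0.52 in FeO (mean -0.60). Next came Serpina1 in FeD (-0.15), and in FeO the acinar serpin Serpini2 at -0.49 and -0.52 (mean -0.50). A second Prss7 probe, not detected, read 0.14 and -0.35 in FeD and 0.25 and 0.11 in FeO.

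Other acinar products, 18 probes for lipases, amylases, carboxypeptidases, ribonuclease and granule proteins, resembled the zymogens in range, and 17 were detected. Their median was 0.13 in FeD and -0.32 in FeO, with none at a log2 ratio of 1 in size. As read, with saturated spots included, 3 of 17 in FeD lay above 0 on both arrays and 2 below, and in FeO 1 of 14 above and 9 below. The colipase Clps had the highest FeD value, at 0.42 and 0.63 (mean 0.53), followed by the granule protein Sycn at 0.79 and -0.12 (mean 0.33). Lowest in FeD were the bile-salt lipase Cel, at 0.04 and -0.66 (mean -0.31), and Cpb1 (-0.23). In FeO the highest were Cuzd1, at 0.13 and 0.50 (mean 0.31), and Sycn (-0.04), and the lowest were a probe of Amy2, pancreatic amylase, at -0.20 and -1.10 (mean -0.65), and Cel at -0.32 and -0.98 (mean -0.65). Acinar transcription factors and secretion machinery, with 13 of 14 probes detected, had medians of -0.03 in FeD and -0.0034 in FeO. Of the 13, 5 were above 0 on both arrays and 2 below in FeD, and 4 above and 2 below in FeO. Over all probes these shares were 24.9% and 21.5% in FeD and 27.8% and 24.1% in FeO. Ptf1a, the subunit that gives PTF1 its name, read -0.30 and -0.36 in FeD (mean -0.33). In FeO it read -0.76 and -0.66 (mean -0.71), the lowest of this list there. Xbp1 was also below 0 on both arrays in FeD (mean -0.54) and FeO (mean -0.65). Rbpjl, another PTF1 subunit, changed sides between arrays, at -0.45 and 0.25 in FeD and -0.86 and 0.23 in FeO. Both Nr5a2 probes lay above 0 on both arrays in FeD (means 0.37 and 0.26) and FeO (means 0.30 and 0.27).

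**Figure D5:**
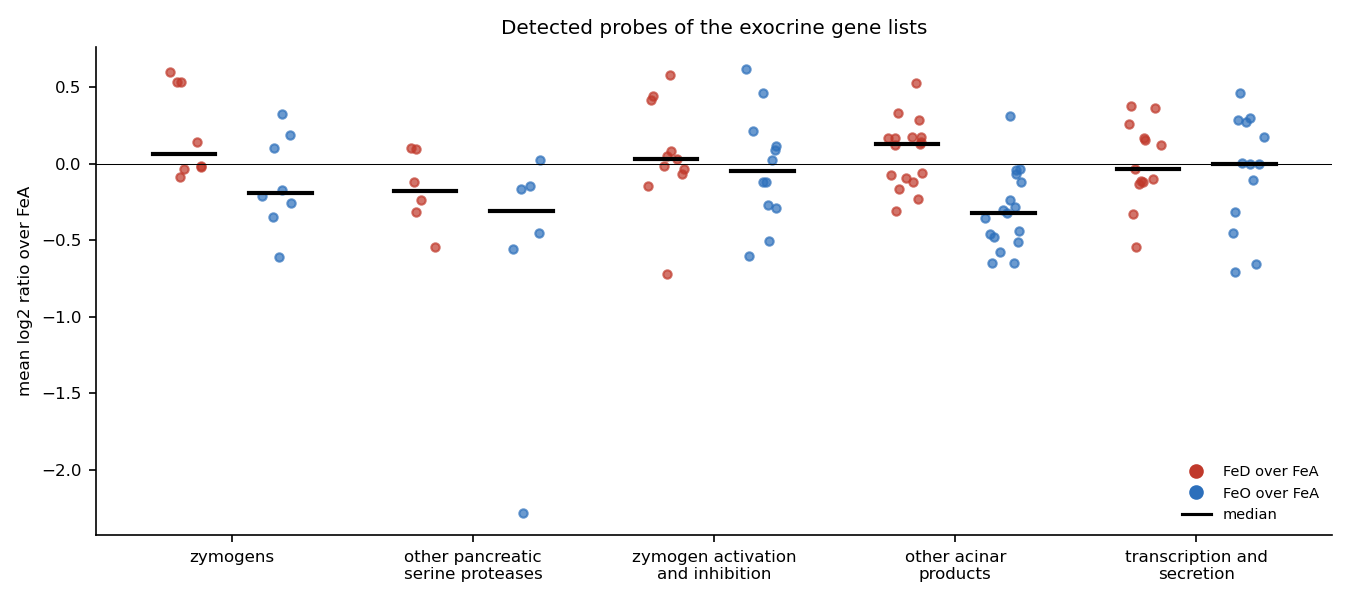
Mean log2 ratio over FeA of each detected probe in the exocrine gene lists, FeD in red and FeO in blue, with the median as a bar and values from 1 array where the other spot was an outlier. Zymogens and other acinar products span similar ranges, and the single point below -2 is LOC362347 in FeO.

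Probes most like the members' median over the 4 arrays (0.29 and 0.02 in FeD, 0.05 and -0.36 in FeO) were found among 12120 named probes well above background in all 8 channels. By Euclidean distance over the 4 ratios they were RGD1563348 (0.08), Insm1 (0.09), Jph4 (0.09), Pcdhgb6 (0.09) and Prr7 (0.10). In FeO the members' median rested on 7 members on array 1 and 4 on array 2, as read with saturated spots included. The SD among members was 0.27 to 0.33 on each array, which is not the same measure as these distances.

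Markers of other cells in the pooled tissue differed between pools by list and by gene. Over all probes, 24.9% were above 0 on both arrays and 21.5% below in FeD, and 27.8% and 24.1% in FeO. In FeO the adipocyte list had a median of 1.69 (7 of 8 detected probes above 0 on both arrays), the mast cell list 1.00 (6 of 6 above) and the lymphoid list -0.50 (8 of 9 below). Enteropeptidase is known from the intestinal epithelium, whose list had a median of -1.61 in FeD (10 of 11 below) and -1.78 in FeO (10 of 12 below). In FeD the lymphoid list had a median of 0.49 (11 of 11 above) and the adipocyte list -0.03 (2 of 7 above and 3 below), and the mast cell list 0.07 (3 of 6 above and 2 below). The islet list had medians of -0.12 in FeD (4 of 12 below and 1 above) and -0.27 in FeO (9 of 12 below and 1 above). Its members went both ways in FeO, with glucagon (Gcg) above 0 on both arrays (mean 1.14) and Iapp (mean -1.02) and a Ppy probe (mean -1.20) below 0 on both. The duct list had medians of 0.04 in FeD and 0.03 in FeO (3 of 9 above and 3 below, near the shares over all probes). Below 0 on both FeO arrays were Krt19 at -1.27 and -0.69, Spp1 at -0.83 and -0.92 and a Slc4a4 probe at -0.04 and -0.46. Above 0 on both were a Cftr probe at 0.44 and 0.15, a Sox9 probe at 0.16 and 0.30 and another Slc4a4 probe at 0.10 and 0.07. The part of tissue composition in the zymogen ratios was not tested.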

How the data were processed

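RNA pools of 3 diets were compared on 4 two-color arrays. The labels number them as slides 1 to 4, while the file headers give 1 slide for all 4. The intensity values, as deposited by the authors, are median spot and local background signals of Agilent Feature Extraction 10.1.1.1, which scales bright spots up from a low-gain scan. The authors' tables also hold fold changes, p-values and q-values, which were not used. Only their probe names, accessions and symbols were read.

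With limma 3.58.1 in R 4.3.3, background was corrected by normexp (offset 50) on median signals, in place of the mean signals first planned. Control spots and spots flagged as outliers were left out (722 to 938 of 42877 spots per array). Loess (span 0.3) was fitted within each array, spots of a probe were averaged, the swapped array was turned, and the 2 arrays, 1 replicate, were averaged. Detection was well above background in over 50% of spots, for 61.9% to 71.5% of spots per channel. Array number limits precision. The size criterion was a log2 ratio of 1. Tables were handled in Python 3.11.15 with pandas 2.3.3 and numpy 2.4.6. The normalization was tested on simulated data, with changed probes drawn from a wide range of brightness. That test does not show how it handles the saturated zymogen spots.

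All members are named. From the lists of other pancreatic serine proteases, zymogen activation and inhibition, and other acinar products, the 2 highest and 2 lowest detected probes per comparison are named, and the 5 probes most like the members' median. Named outside this rule, after their values were seen, are the other trypsinogens, Ptf1a, Gcg, Iapp, Ppy, Krt19 and Spp1. Also named outside it are Rbpjl, Nr5a2, Xbp1, Cftr, Sox9 and Slc4a4. Members and lists were chosen with earlier results of these data known. Alternatives were median centering, loess without acinar probes, span 0.7, processed signals, no background subtraction, offset 0, outliers kept, saturated spots left out, Aquantile, the median over spots, each array left out, a log2 ratio of 2, the methods' test and, added later, green alone.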

Additional observations from a re-analysis of the deposited data

How the results depend on the processing

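In both comparisons 0 members reached a mean log2 ratio of 1 in size, as read, with the same sign on both arrays under any alternative that used both channels. In FeO only 3 members had both arrays in the main setting. With median centering 3 members passed 1 in FeO on their single unflagged array, Prss1 at 1.47, Ctrl at 1.27 and Cela3b at -1.01. With green alone and loess, 3 members reached 1 upward in FeD and 1 in FeO, and with green alone and median centering 2 and 1. Of the other probes as bright as the members, 0 of 25 in FeD and 0 of 22 in FeO reached 1 with green alone and loess. The share over all probes is not given for green alone. The median over members moved from 0.06 in FeD to 0.53 with green alone (0.38 median centered), and from -0.19 in FeO to 0.25 with green alone and median centering and to 0.70 with median centering, where 5 members rest on 1 array. Leaving out one array each gave medians of 0.0225 to 0.29 in FeD and -0.36 to 0.05 in FeO. Members above 0 on both arrays, 3 in FeD and 1 in FeO, became 0 and 0 with median centering and with saturated spots left out (few members then have both arrays), and 4 to 7 in FeD and 1 to 4 in FeO on a single array. Members below 0 on both arrays, 0 in FeD and 1 in FeO, became 2 and 2 with processed signals, 0 in FeO with median centering, 4 in FeO with outliers kept, and 1 to 4 in FeD and 3 to 3 in FeO on a single array. The causes were not tested.

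Each diet is 1 pool, so the spread among rats is unknown. No paired analysis was possible because each comparison is 1 pair of RNA pools read on 2 arrays and the labels give no replicate numbers. The methods' t-test, which sets arrays of the same pools against each other, gave p below 0.05 for 1573 of 30352 probes in FeD and 1981 of 30317 in FeO, and 1 and 0 after Benjamini-Hochberg adjustment. Of the members it passed Cela1 in FeD before adjustment and none after. In red, saturation limits what these arrays can show of the zymogens.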
